A study of Mus musculus with 15 samples.

Results

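The 7 genes described here, Glul, Rhbg, Slc1a2, Oat, Gulo, Lect2 and Tbx3, mark the hepatocytes around the central vein of the liver lobule and lie outside the cytochrome P450 family. They were taken as every probe set whose single annotated gene symbol was 1 of these names. This gave 16 of the 34945 probe sets that carry 1 symbol, and 7 of 18193 genes. Of the 16, 8 reached a log2 value of 4 on at least 3 arrays, the level taken here as above background, and were tested. These 8 covered 6 genes. None of the 5 Slc1a2 probe sets passed, nor did 3 of the 5 for Tbx3. Rhbg 1419134_at and Tbx3 1437479_x_at passed only because of their 3 untreated arrays, so their tests against untreated livers had little room to show anything but a fall.

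The series measured liver RNA on 15 Affymetrix mouse expression arrays, with 3 arrays of untreated livers and 4 in each of 3 treated groups. The wild type was strain C3H/HeOuJ. The mutant was strain C3H/HeJ, which carries the P712H change in Tlr4, the receptor for bacterial lipopolysaccharide. All animals were killed at 15 weeks of age. The 3 treated groups received diethylnitrosamine (DEN, a liver carcinogen) at 100 mg/kg when 12 weeks old and carbon tetrachloride (CCl4, a toxin that kills pericentral hepatocytes) at 0.50 ml/kg when 13 and again when 15 weeks old. Their livers were collected 48 hours after the second CCl4 dose. The antibiotic group was wild type and in addition drank ampicillin, neomycin and metronidazole (each 1 g/l) with vancomycin (500 mg/l) for 2 weeks from week 10. There was no untreated mutant and no untreated antibiotic group, so the strain difference, the Tlr4 allele and the response to DEN and CCl4 cannot be told apart in the mutant. The labels do not say outright that each array was a separate mouse, and p-values measure the spread between these arrays.

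Hepatocytes differ along the path of blood from the portal tract to the central vein. Wnt proteins and R-spondins from the endothelium of the central vein keep beta-catenin active in the nearest hepatocytes, which express a gene programme of their own. Ammonia that escapes the periportal urea cycle is bound into glutamine in the last rows of cells before the vein. In that step glutamine synthetase (Glul) joins ammonia to glutamate, Rhbg is an ammonia channel, Slc1a2 imports glutamate and ornithine aminotransferase (Oat) yields glutamate from ornithine. Gulo catalyses the last step of vitamin C synthesis in the mouse, Lect2 is a secreted hepatocyte protein known as a beta-catenin target, and Tbx3 is a T-box transcription factor also known as a beta-catenin target in liver.

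RefSeq promoter windows of assembly GRCm38.p6, from 250 bases before to 50 after the transcription start, were given for 4 of the 7 genes. They are shown for the 3 of them that were detected, because these genes were lower together after treatment and are described as sharing an upstream pathway. Capitals mark the letters CTTTGAT, the longer form of the core CTTTGA that TCF/LEF factors (the DNA-binding partners of beta-catenin) recognise, read on either strand.
Glul: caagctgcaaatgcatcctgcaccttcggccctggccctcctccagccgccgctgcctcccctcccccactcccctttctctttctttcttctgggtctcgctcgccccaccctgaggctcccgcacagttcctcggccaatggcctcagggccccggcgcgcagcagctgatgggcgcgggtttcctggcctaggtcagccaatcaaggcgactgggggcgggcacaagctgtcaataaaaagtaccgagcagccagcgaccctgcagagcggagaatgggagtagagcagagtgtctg
Oat: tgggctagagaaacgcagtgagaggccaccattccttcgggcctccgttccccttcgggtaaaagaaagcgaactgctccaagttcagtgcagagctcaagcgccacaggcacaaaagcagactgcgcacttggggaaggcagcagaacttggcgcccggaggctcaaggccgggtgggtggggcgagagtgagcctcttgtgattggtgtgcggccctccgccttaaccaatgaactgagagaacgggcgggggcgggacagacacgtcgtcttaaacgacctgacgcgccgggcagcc
Lect2: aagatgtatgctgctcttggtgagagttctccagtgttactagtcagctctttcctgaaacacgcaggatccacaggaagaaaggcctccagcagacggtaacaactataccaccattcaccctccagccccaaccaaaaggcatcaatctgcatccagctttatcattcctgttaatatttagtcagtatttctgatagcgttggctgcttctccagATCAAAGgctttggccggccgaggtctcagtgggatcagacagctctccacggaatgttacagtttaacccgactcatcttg

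The Glul window is chr1:153899679-153899978 on the plus strand, the Oat window chr7:132576349-132576648 on the minus strand and the Lect2 window chr13:56548489-56548788 on the minus strand. Each sequence is printed in the direction of transcription. The Lect2 window held the longer TCF/LEF form, on the opposite strand, starting at position -32 from the transcription start, and the Glul and Oat windows held neither form. The Slc1a2 window is not printed because that gene stayed near background. It is chr2:102706188-102706487 on the plus strand, inside the annotated gene, whose first base is 102658239. This window held the core at 2 places. One of these, at -206, was part of the longer form and the other was at -77. Of 32851 promoter windows of this length in the table, 16% held the core and 3.73% the longer form. The HNF4A form CAAAGTNCA was in none of the 4 windows, against 1.41% of all windows. A TATA box, searched as TATAAA, was likewise in none, against 13.6%. These are matches of letters, and a window without a match says only that the letters are not in that stretch.

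A log2 value of 4 was reached by 34.6% to 36.7% of probe sets on an array, and correlations between arrays of a group were 0.976 to 0.993. The tissue label was borne out by 14 of 14 measured hepatocyte genes that are not zoned, all with a mean of at least 4 in every group, and by kidney, brain and pancreas markers, of which 0 of 8 reached that mean in any group. The summed linear signal of the unzoned hepatocyte genes ran from 218088 to 229842 on untreated arrays and from 188565 to 210520 in treated wild type. Markers of other cells differed far more between groups. The sum over 17 macrophage markers was 931 to 2176 in untreated wild type, 6825 to 9867 in treated wild type, 1383 to 1775 in the treated mutant and 3092 to 5909 in the antibiotic group. The sum over 12 stellate cell and myofibroblast markers was 1881 to 4204, 13651 to 15968, 3806 to 5203 and 8372 to 12192 in the same order. That over 11 markers of dividing cells was 107 to 154, 19804 to 24850, 6274 to 8352 and 6157 to 17215. The part of these shifts in the results below was not tested.

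The first question was how the pericentral genes stood after DEN and CCl4 in the wild type. All 8 tested probe sets were lower in treated than in untreated wild type, and in each the groups did not overlap (limma, Benjamini-Hochberg adjusted p under 0.05). Over all 15541 tested probe sets, 25.7% were called lower and 28.0% were lower without overlap, so a call by itself is common in this comparison. The 8 include Rhbg and Tbx3 1437479_x_at, which were kept only because of the untreated arrays; the other 6 were also lower without overlap, with a median of -2.90. The median log2 difference was -2.92 over the 8 probe sets and 0.09 over all. Glul and Tbx3 fell most and Lect2 least. In whole liver, fewer pericentral cells and less of each RNA per cell cannot be told apart.

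**Figure D1:**
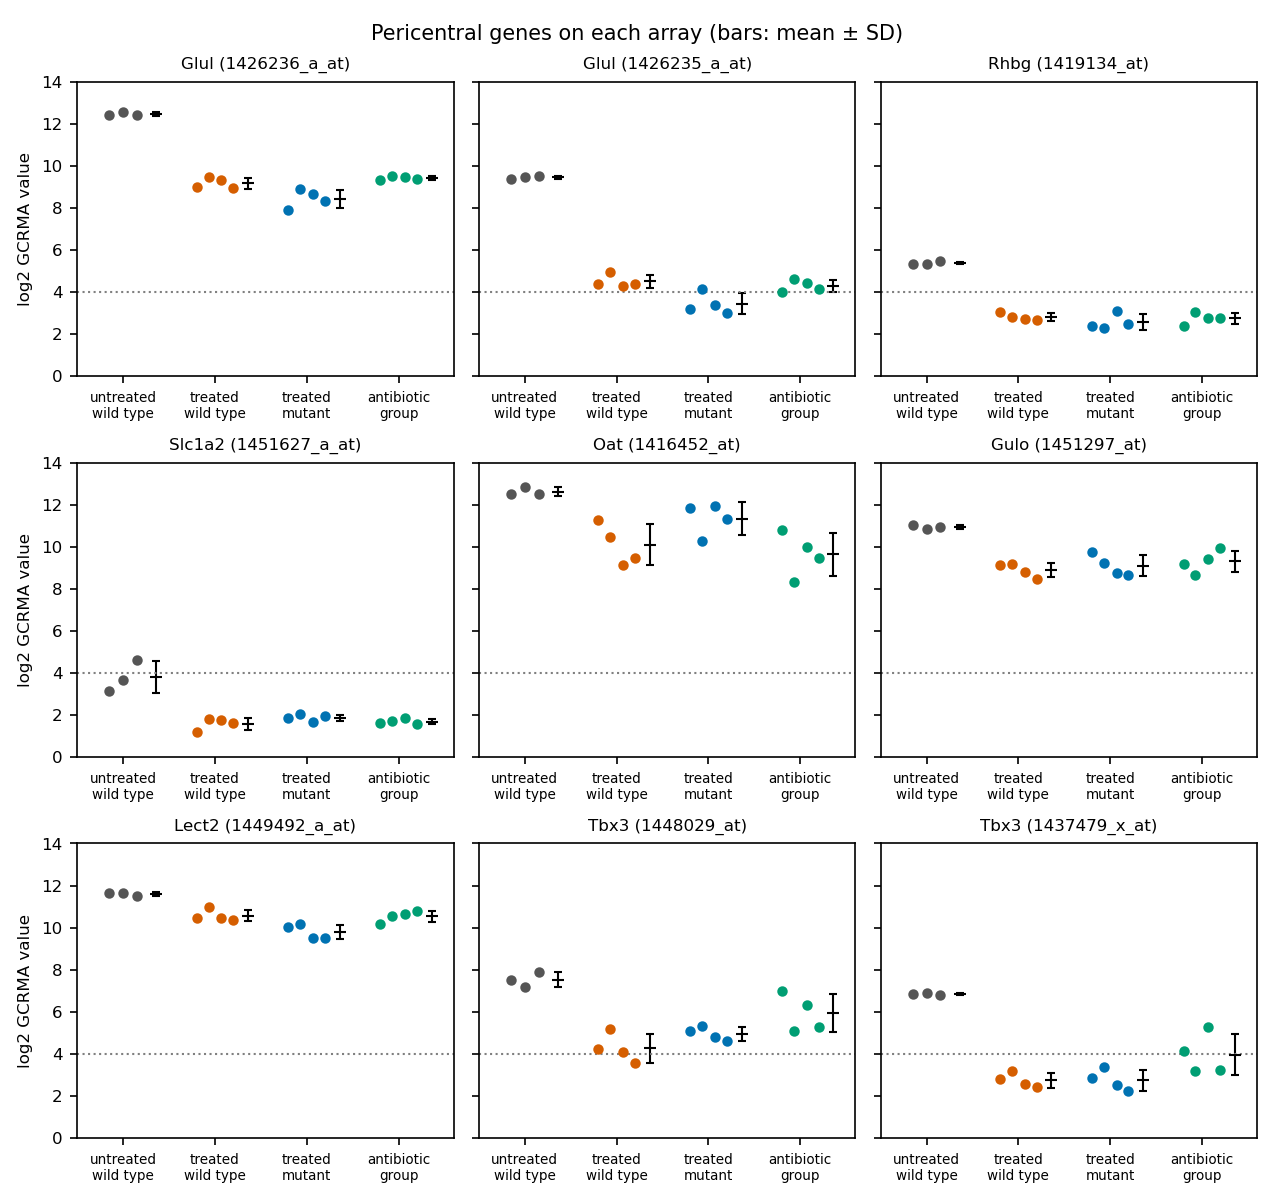
Log2 GCRMA values on each array for the 8 tested probe sets and for the brightest Slc1a2 probe set, with 1 point per array, the mean ± SD to the right of each group and a dotted line at the background level of 4. The untreated arrays lie above all 12 treated arrays in every panel, Oat has the widest spread within treated groups, and only 1 Slc1a2 array, untreated, is above 4.

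Glul, the glutamine synthetase gene, was read by 2 probe sets. On 1426236_a_at the untreated arrays stood at log2 values of 12.40, 12.57 and 12.40, and the treated wild-type arrays at 8.97, 9.45, 9.33 and 8.93. The treated mutant arrays were at 7.89, 8.88, 8.64 and 8.34, and the antibiotic arrays at 9.33, 9.53, 9.46 and 9.35. The untreated group was high and the mutant group lowest, with its highest array just under the lowest treated wild-type array. Treated wild type fell by 3.29 ± 0.20 (SE) on the log2 scale, a 9.81-fold lower signal (limma adjusted p = 5.42e-09).

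The other Glul probe set, 1426235_a_at, was dimmer, again with untreated livers highest and the mutant lowest, but with treated wild type slightly above the antibiotic group. Its untreated values were 9.39, 9.46 and 9.52, its treated wild-type values 4.40, 4.96, 4.27 and 4.40. The mutant values were 3.18, 4.15, 3.41 and 3.03, and the antibiotic values 3.99, 4.61, 4.43 and 4.14. The treated arrays of all 3 groups sat near the background level, with 3 of the 4 mutant arrays and 1 antibiotic array below it. Treated wild type was 30.9-fold lower than untreated (log2 difference -4.95 ± 0.24, limma adjusted p = 6.41e-10).

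Rhbg, the ammonia channel gene, had untreated values of 5.33, 5.35 and 5.47. Treated wild type gave 3.06, 2.81, 2.74 and 2.69, the mutant 2.40, 2.29, 3.11 and 2.50, and the antibiotic group 2.38, 3.05, 2.78 and 2.79. All 12 treated arrays were below 4 and the 3 treated groups overlapped, so only a bound can be given. Rhbg was at least 2.61-fold lower in treated wild type (log2 difference -2.56 ± 0.19, limma adjusted p = 4.5e-08), where values under 4 were set to 4 for the bound, as for each "at least" here.

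Slc1a2, which encodes a glutamate importer, was near background on all its probe sets. On 1451627_a_at the untreated arrays were at 3.13, 3.68 and 4.63, and all 12 treated arrays lay between 1.19 and 2.04. On 1439940_at the untreated arrays spanned 3.52 to 3.73 and the treated ones 1.61 to 2.17. In these 2 probe sets, as in the other 3, every untreated array was above every treated wild-type array, but a single array reached 4 and the gene was neither tested nor given a fold.

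Oat, the ornithine aminotransferase gene, was the most variable of the 7 among treated livers. Its untreated values were 12.49, 12.86 and 12.49, and treated wild type gave 11.28, 10.45, 9.15 and 9.46. The mutant gave 11.85, 10.26, 11.95 and 11.31 and the antibiotic group 10.80, 8.34, 9.98 and 9.46. No treated array reached the untreated range, and the 3 treated groups overlapped one another. In treated wild type Oat fell by 2.53 ± 0.57 on the log2 scale, 5.76-fold (limma adjusted p = 0.00145). The SD was 0.97 in treated wild type against 0.21 in untreated.

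Gulo, the vitamin C synthesis gene, was at 11.04, 10.84 and 10.93 in untreated livers and at 9.13, 9.19, 8.79 and 8.48 in treated wild type. The mutant values were 9.74, 9.25, 8.75 and 8.65 and the antibiotic values 9.19, 8.68, 9.42 and 9.92. The treated groups overlapped throughout, all of them under the untreated range. Gulo was 4.11-fold lower in treated wild type (log2 difference -2.04 ± 0.29, limma adjusted p = 2.58e-05).

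Lect2 was at 11.67, 11.67 and 11.50 in untreated livers and at 10.48, 11.001, 10.46 and 10.38 in treated wild type. The mutant arrays were at 10.03, 10.18, 9.51 and 9.50 and the antibiotic arrays at 10.19, 10.58, 10.63 and 10.79. The mutant group was lowest, below every treated wild-type array, and the antibiotic group overlapped the treated wild type. Lect2 was 2.04-fold lower in treated wild type (log2 difference -1.03 ± 0.20, limma adjusted p = 0.00043).

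Tbx3, the transcription factor gene, was detected by 2 of its 5 probe sets. On 1448029_at the untreated arrays were at 7.54, 7.17 and 7.91 and treated wild type at 4.23, 5.18, 4.09 and 3.58. The mutant was at 5.10, 5.32, 4.79 and 4.60, and the antibiotic group at 6.995, 5.09, 6.35 and 5.27. Antibiotic replicates 1 and 3 were the highest treated arrays, with replicate 1 close to the untreated range, and replicates 2 and 4 lay among the mutant arrays. Tbx3 was at least 8.96-fold lower in treated wild type by this probe set (log2 difference -3.27 ± 0.43, limma adjusted p = 1.26e-05).

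On the other Tbx3 probe set, 1437479_x_at, untreated values were 6.86, 6.90 and 6.82 and treated wild-type values 2.81, 3.20, 2.56 and 2.43. The mutant gave 2.85, 3.41, 2.51 and 2.27 and the antibiotic group 4.14, 3.22, 5.28 and 3.23. Antibiotic replicates 1 and 3 stood out above background, as they did on the first probe set. The bound for treated wild type was at least 7.25-fold lower (log2 difference -4.11 ± 0.40, limma adjusted p = 8.5e-07). The 3 undetected Tbx3 probe sets ran from 1.53 to 3.30 over all arrays.

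The same test in the other treated groups used the same 3 untreated arrays, so its values stand beside those of the wild type without being independent of them. In the treated mutant 7 of 8 probe sets were lower, against 20.3% of all probe sets called lower, and all 8 lay below the untreated range, against 21.9%. The exception was Oat, at -1.27 ± 0.57 (limma adjusted p = 0.0747). It passed when arrays were centred on their medians (adjusted p = 0.0465), when only these 2 groups were fitted (0.023) and with array weights (0.0249). The mutant differences were -4.02 for Glul 1426236_a_at, a 16.3-fold lower signal, -1.84 for Gulo, 3.58-fold, and -1.81 for Lect2, 3.5-fold. In the antibiotic group 8 of 8 were lower and 8 of 8 did not overlap, against 23.4% and 24.4% of all. Of the 6 probe sets that did not depend on the untreated arrays to be kept, 5 were lower in the mutant and 6 in the antibiotic group. Its differences were -3.04 for Glul 1426236_a_at (8.24-fold), -2.97 for Oat (7.83-fold), -1.63 for Gulo (3.11-fold), -1.07 for Lect2 (2.09-fold) and -1.61 for Tbx3 1448029_at (3.06-fold).

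**Figure D2:**
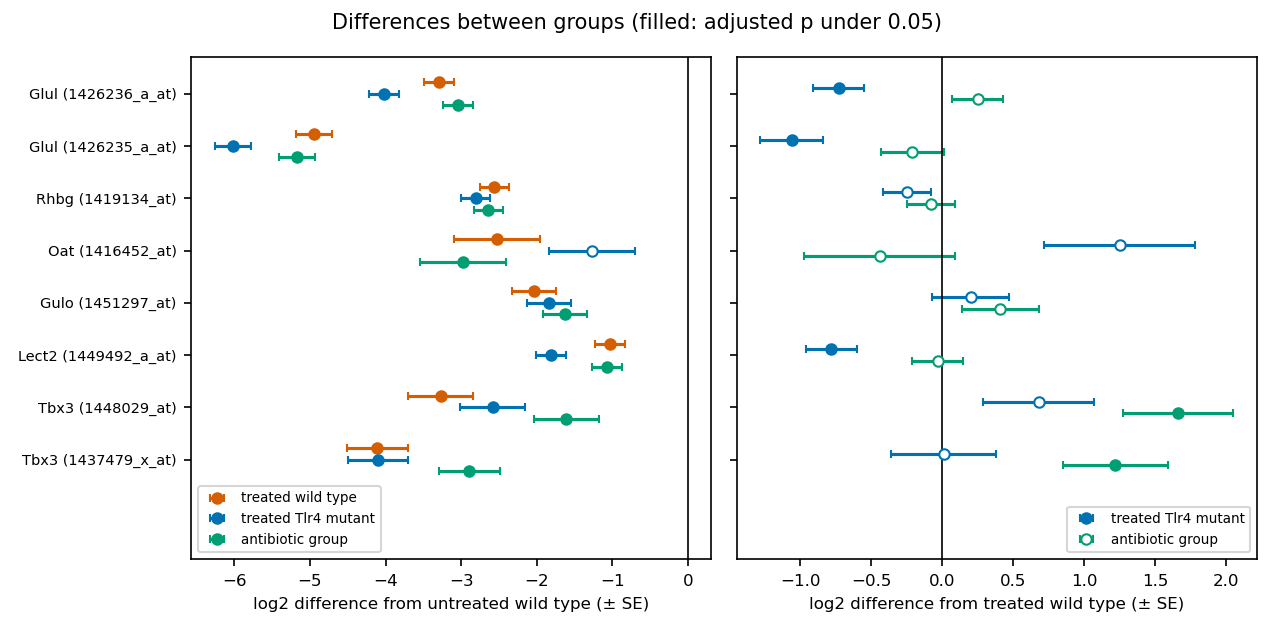
Log2 differences with their standard errors for the 8 tested probe sets, on the left for each treated group against untreated wild type and on the right for the mutant and the antibiotic group against treated wild type. Filled points passed an adjusted p under 0.05: on the left all but Oat in the mutant, on the right the 2 Glul probe sets and Lect2 in the mutant and the 2 Tbx3 probe sets in the antibiotic group.

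The second question was whether the treated mutant differed from the treated wild type. Glul and Lect2 were lower in the mutant. In limma 0 of 8 were called higher, against 12.5% of all, and 1, Oat, was higher at an unadjusted p under 0.05. The 3 called lower of 8 compare with 16.1% of all probe sets called lower, and the 3 without overlap are the same 3, against 16.7% of all lower without overlap. The 3 count Glul on both of its probe sets. With the highest-mean probe set per gene, 2 of 6 were lower. The median over the 8 was -0.12 and over all probe sets 0.02. Glul was 1.66-fold lower on 1426236_a_at (8.44 ± 0.43 against 9.17 ± 0.26, mean ± SD, n = 4 each, log2 difference -0.73 ± 0.18, limma adjusted p = 0.00805). On 1426235_a_at it was at least 1.38-fold lower (log2 difference -1.06 ± 0.22, limma adjusted p = 0.00258), and the difference was -0.47 with values under 4 set to 4. Lect2 was 1.71-fold lower (log2 difference -0.78 ± 0.18, limma adjusted p = 0.00604).

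Oat pointed the other way in the mutant without passing the test, at 1.25 ± 0.53 on the log2 scale (limma adjusted p = 0.0885). The call turned on single arrays: without treated wild-type replicate 1 it was 1.65 (adjusted p = 0.0318), without mutant replicate 2 it was 1.62 (adjusted p = 0.042), and with array weights 1.46 (adjusted p = 0.0194). Rhbg was at -0.25 (limma adjusted p = 0.311), and at -0.43 without mutant replicate 3 (adjusted p = 0.0429), all of it under the background level. Gulo was at 0.20 (limma adjusted p = 0.614), and Tbx3 at 0.68 (adjusted p = 0.216) and 0.01 (adjusted p = 0.988) on 1448029_at and 1437479_x_at. These misses do not show that the groups were alike.

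The third question was whether antibiotics before the carcinogen changed the picture in the wild type. Tbx3 was higher in the antibiotic group than in treated wild type on both detected probe sets, and no other tested probe set passed. The 2 called higher of 8 compare with 4.47% of all probe sets called higher, and the 1 without overlap, 1437479_x_at, with 6.38%. The 2 calls read the same gene on the same arrays and are not independent of each other. The medians were 0.11 over the 8 and -0.03 over all. Tbx3 was at least 2.93-fold higher on 1448029_at (log2 difference 1.66 ± 0.39, limma adjusted p = 0.0154), where antibiotic replicate 2 lay below the highest treated wild-type array. On 1437479_x_at the log2 difference was 1.22 ± 0.37 (limma adjusted p = 0.0466), with no fold because 2 of the antibiotic arrays and all treated wild-type arrays were under 4.

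The Tbx3 difference rested on few arrays. On 1448029_at it was 1.43 without treated wild-type replicate 4 (limma adjusted p = 0.0511), and with only the 2 groups fitted the adjusted p was 0.0556. On 1437479_x_at, raising every value under 4 to 4 left a difference of 0.35 (adjusted p = 0.306). The call was also lost with only the 2 groups fitted (adjusted p = 0.103) and with no filter (adjusted p = 0.0688). It was lost as well without any 1 of the treated wild-type replicates 1 to 4 (1.24, 1.37, 1.16 and 1.11, adjusted p = 0.0794, 0.0531, 0.0978 and 0.118). It was also lost without antibiotic replicate 1 (1.16, adjusted p = 0.104) or 3 (0.78, adjusted p = 0.0941). Those 2 antibiotic replicates, high for Tbx3, had the lowest summed signals of dividing-cell markers in their group, at log2 12.59 and 13.26 against 14.07 and 13.66 for replicates 2 and 4, and the part of this in the Tbx3 values was not tested.

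No other antibiotic difference from treated wild type passed the test. Glul was at 0.25 ± 0.18 (limma adjusted p = 0.403) and -0.21 ± 0.22 (0.578) on its brighter and dimmer probe sets, and Lect2 at -0.03 ± 0.18 (0.927). Oat was at -0.44 ± 0.53 (limma adjusted p = 0.635), Gulo at 0.41 ± 0.27 (0.35) and Rhbg at -0.08 ± 0.17 (0.821).

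The antibiotic group and the mutant were set against each other directly, which tests whether their differences from treated wild type differ. Glul and Lect2 were higher in the antibiotic group, 3 of 8 probe sets against 5.62% of all called higher, and 2 of the 8 did not overlap and were higher, against 7.48%. The 3 count Glul on both of its probe sets. Glul 1426236_a_at was 1.97-fold higher (log2 difference 0.98 ± 0.18, limma adjusted p = 0.00392), and this call held without any 1 array. Glul 1426235_a_at differed by 0.85 ± 0.22 (limma adjusted p = 0.025) and Lect2 by 0.74 ± 0.18, 1.67-fold (adjusted p = 0.0203). The dimmer Glul call was lost without mutant replicate 1 or 4 or antibiotic replicate 2 or 3 (0.76, 0.71, 0.75 and 0.80, adjusted p = 0.0765, 0.072, 0.0717 and 0.0691). It was also lost with values under 4 set to 4, where the difference was 0.26 (adjusted p = 0.313), with array weights (0.83, adjusted p = 0.0523) and with only these 2 groups fitted (adjusted p = 0.08). The Lect2 call was lost with only these 2 groups fitted (adjusted p = 0.0618), and without mutant replicate 4 or antibiotic replicate 3 or 4 (0.64, 0.71 and 0.66, adjusted p = 0.0593, 0.0551 and 0.0565).

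Oat was lower in the antibiotic group than in the mutant by 1.70 ± 0.53 on the log2 scale, with a limma adjusted p = 0.0533. It passed without mutant replicate 2 (-2.06, adjusted p = 0.0343) or antibiotic replicate 1 (-2.08, adjusted p = 0.0198). Tbx3 1437479_x_at, at 1.21 (limma adjusted p = 0.0538), passed without mutant replicate 2 (1.42, adjusted p = 0.0454) or antibiotic replicate 2 or 4 (1.46 and 1.45, adjusted p = 0.0324 and 0.0331). The order of the treated groups thus differed between genes. Glul and Lect2 were lowest in the mutant, with the other two groups not separated by the test. For Tbx3 1448029_at the antibiotic group was above treated wild type, with the mutant between them and separated from neither. For Oat, Gulo and Rhbg no pair of treated groups passed.

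The members were next set beside other genes of the lobule in treated against untreated wild type, with 1 probe set per gene, that with the highest mean. Of 25 other pericentral genes outside the P450s, 17 were tested, and 14 were lower and 0 higher (median log2 difference -1.45). The furthest from untreated were Prodh, described below, Slc13a3, a dicarboxylate transporter gene that was 13.3-fold lower (9.34 ± 0.26 to 5.61 ± 0.73, limma adjusted p = 2.02e-06), and Avpr1a, at least 6.3-fold lower (adjusted p = 0.000203). Of 10 tested pericentral P450 genes, 9 were lower and 0 higher (median -2.50), with Cyp2c37 45.8-fold lower (limma adjusted p = 8.92e-08). Of 19 periportal genes 8 were lower and 3 higher (median -0.53), and of 14 unzoned hepatocyte genes 6 were lower and 0 higher (median -0.17). In limma these 3 counts of 0 were also 0 at an unadjusted p under 0.05. The median over all probe sets was 0.09, with 25.7% called lower. The pericentral lists had the lowest medians and the unzoned list the one nearest to all probe sets, and no test of the lists against each other was made. The members, these lists and those below were chosen with earlier results of these data known, so their counts and medians are a description only. Lgr5, Axin2, Nkd1 and Sp5, other genes known as beta-catenin targets, were among the 5 listed genes below the background level. Against treated wild type, 2 of the 17 other pericentral genes were lower and 4 higher in the mutant (median 0.28). Of the 10 pericentral P450 genes 1 was lower and 1 higher there (median -0.01), where 16.1% and 12.5% of all probe sets were.

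**Figure D3:**
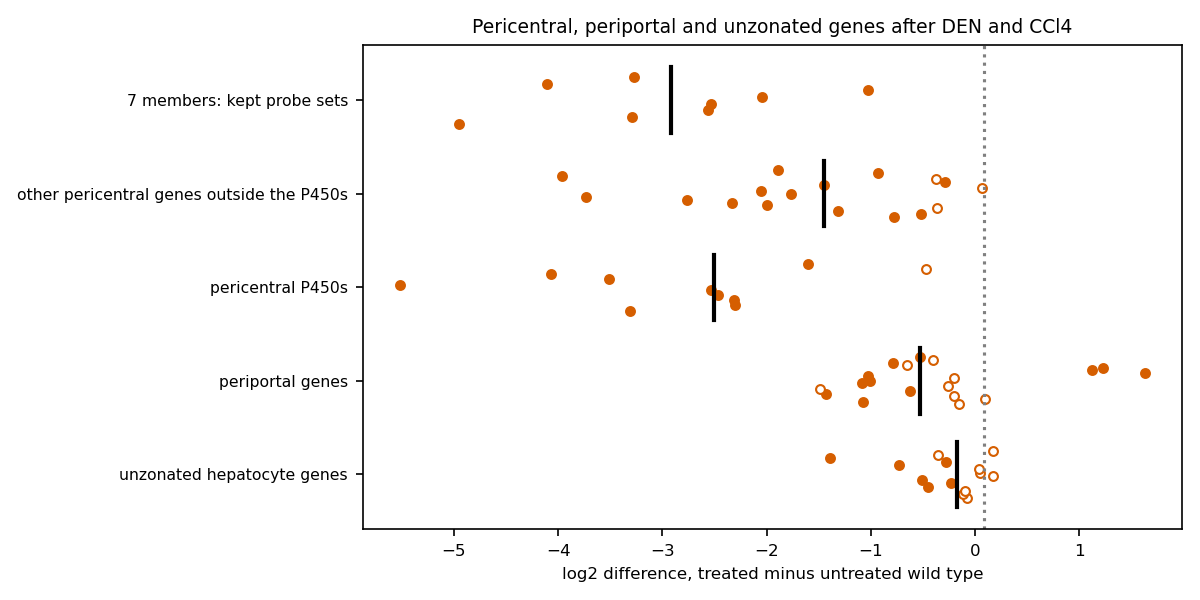
Log2 differences between treated and untreated wild type, with 1 point per tested probe set for the 7 members and 1 per gene for 4 other lists, a black bar at each median and a dotted line at the median of all probe sets (0.09). Filled points passed an adjusted p under 0.05; the medians are -2.92, -1.45, -2.50, -0.53 and -0.17 from top to bottom.

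Lists of genes that work beside the members were counted in the same comparison, where 25.7% of all probe sets were lower and 34.2% higher. In glutamine and ammonia handling, 3 of 15 tested genes were lower and 5 higher in treated wild type, shares near that background. Slc38a4, an amino acid transporter, was 2.52-fold lower (13.52 ± 0.10, n = 3, to 12.19 ± 0.23, n = 4, limma adjusted p = 3.36e-06). Cad, the enzyme that spends glutamine on pyrimidine synthesis, was 3.49-fold higher (5.93 to 7.73, limma adjusted p = 1.46e-07). Slc38a1, a glutamine transporter, reached the background level in treated wild type alone, which is how it passed the filter, and its bound was at least 1.15-fold higher there than in each of the other 3 groups.

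Around Oat, in ornithine, proline and polyamine metabolism, 7 of 14 genes were lower and 5 higher, against 25.7% and 34.2% of all. Prodh, proline dehydrogenase, was among the listed pericentral genes too and fell from 10.80 ± 0.04 to 6.84 ± 0.83, 15.6-fold (limma adjusted p = 9.25e-07). Aldh4a1, which completes the breakdown of proline to glutamate, was 3.31-fold lower (log2 difference -1.73 ± 0.24, limma adjusted p = 2.34e-05). Aldh18a1, which makes the proline and ornithine precursor from glutamate, rose from 2.58 ± 0.36 to 7.13 ± 0.14, at least 8.74-fold (limma adjusted p = 4.11e-10). Every untreated Aldh18a1 array was under the background level, so this gene passed the filter only through treated arrays. Its test against untreated livers therefore had little room to show anything but a rise. Prodh was higher than treated wild type in the mutant, by 1.53 ± 0.36 (limma adjusted p = 0.00596), and in the antibiotic group, by 1.19 ± 0.36 (adjusted p = 0.0461). Aldh18a1 was lower in both, with log2 differences of -0.69 ± 0.19 (limma adjusted p = 0.0154) and -0.64 ± 0.19 (adjusted p = 0.0444).

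Around Gulo, in vitamin C synthesis and transport, 5 of 10 genes were lower and 2 higher, against 25.7% and 34.2% of all. Rgn, regucalcin, which catalyses the step before Gulo, fell from 13.74 ± 0.05 to 12.29 ± 0.30, 2.73-fold (limma adjusted p = 2.38e-05). Slc23a2, a vitamin C transporter, was at least 1.79-fold lower (limma adjusted p = 0.00461), and Slc2a1, a glucose transporter, 1.65-fold higher (adjusted p = 0.00335). Against treated wild type the mutant had more Slc23a2 (1.02 ± 0.28, limma adjusted p = 0.0131) and less Slc23a1, the other vitamin C transporter (-0.74 ± 0.20, adjusted p = 0.0141). In the antibiotic group 0 of these 10 genes passed in limma, and 3 were higher at an unadjusted p under 0.05.

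Of 19 tested genes of the Wnt, R-spondin and beta-catenin list, 7 were lower and 5 higher in treated wild type, against 25.7% and 34.2% of all. Fzd8, a Wnt receptor, was at least 11.4-fold lower (limma adjusted p = 5.3e-09) and Ccnd1, cyclin D1, 12.7-fold higher (adjusted p = 4.58e-08). Myc, which like Ccnd1 is often given as a beta-catenin target, was 4.79-fold lower (limma adjusted p = 6.68e-05). Against treated wild type, 2 of these genes were lower and 4 higher in the mutant, where 16.1% and 12.5% of all probe sets were. Wls, which cells need to secrete Wnt proteins, was at 5.62, 5.81, 6.31 and 5.76 in treated wild type and at 3.37, 3.45, 3.71 and 3.67 in the mutant. In the antibiotic group it was at 4.28, 4.58, 4.40 and 4.13, between the other two with no overlap. The untreated wild-type arrays, at 3.79, 3.81 and 3.66, overlapped the mutant and lay below every treated wild-type and antibiotic array. Wls was at least 3.67-fold lower in the mutant (limma adjusted p = 3.56e-07) and 2.88-fold lower with antibiotics (adjusted p = 0.000152). Rspo3, an R-spondin, was at least 2.36-fold lower in the mutant (limma adjusted p = 9.77e-05). Its untreated arrays, at 4.09, 4.76 and 4.28, lay below those of treated wild type (5.46, 5.37, 5.18 and 5.21). They overlapped the mutant arrays (3.85, 3.05, 3.52 and 4.26). Wls and Rspo3 are both known from endothelium and stellate cells. Markers of those cells were lower in the mutant as well, 11 of 11 tested for endothelium and 10 of 10 for stellate cells. With antibiotics, 1 of the 11 endothelial and 5 of the 10 stellate cell markers were called lower than in treated wild type, and 0 higher. The share of all probe sets called lower with antibiotics is not given here, so whether these antibiotic counts stand out cannot be judged. The part of these marker differences in the Wls and Rspo3 values was not tested.

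For each detected member, the genes with the most similar values over the 15 arrays were found by Pearson's r, given here as a description, since all genes share the same arrays and the gap between untreated and treated livers. The r of deviations from the group means, given second, leaves that gap out. For Glul these were Tenm3 (0.976 and 0.33), Hint3 (0.972 and 0.18) and Ctnnbl1 (0.970 and 0.25). For Rhbg they were Dct (0.973 and 0.44), Gpcpd1 (0.970 and 0.52) and Kcnk1 (0.970 and 0.02). For Lect2 they were Il18 (0.931 and 0.79), Gcdh (0.917 and 0.06) and Msrb1 (0.915 and 0.79), and for Tbx3 Wipf3 (0.907 and 0.45), Mtmr10 (0.905 and 0.74) and Zdhhc9 (0.900 and 0.68). The r of deviations was thus 0.52 or less for the genes nearest to Glul and Rhbg, and mixed for those nearest to Lect2 and Tbx3. All treated Rhbg arrays were under the background level. Treated group means were also under it for Tenm3 (2.99 to 3.86) and Kcnk1 (2.41 to 2.61). A low r of deviations there cannot be told from noise near background.

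For Oat and Gulo the gene with the highest r also had a high r of deviations. Lhpp, a phosphatase gene, was nearest to Oat (0.975 and 0.96), ahead of Plin3 (0.920 and 0.77) and Ubxn4 (0.919 and 0.81). Lhpp was at 6.62, 6.59 and 6.39 in untreated livers and at 5.18, 4.67, 3.18 and 3.79 in treated wild type. It was at 6.41, 4.69, 6.72 and 5.46 in the mutant and at 5.45, 2.39, 4.25 and 3.26 in the antibiotic group. In each treated group its arrays fell in the same order as those of Oat. In the GRCm38.p6 gene table Lhpp and Oat lie on chromosome 7 with 1 protein-coding gene, Nkx1-2, between them. Like Oat, Lhpp was lower in treated wild type, at least 4.2-fold (limma adjusted p = 0.00603), and its difference in the mutant against treated wild type just missed the threshold (1.61 ± 0.60, adjusted p = 0.0556). For Gulo the nearest were Avpr1a, a vasopressin receptor gene (0.961 and 0.87), Pik3c3 (0.951 and 0.73) and Aldh2 (0.949 and 0.77). Lhpp and Avpr1a were both on the list of other pericentral genes, which was chosen with earlier results of these data known.

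**Figure D4:**
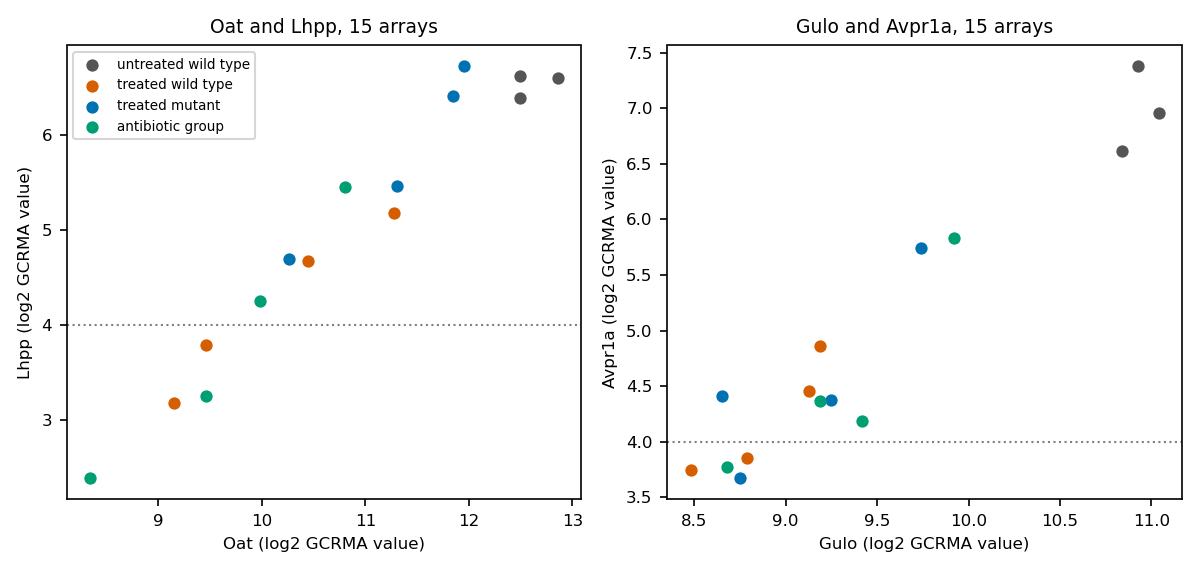
Log2 GCRMA values of Oat against Lhpp and of Gulo against Avpr1a, with 1 point per array coloured by group and a dotted line at the background level of 4. Within treated groups the paired genes rise together. The r of deviations from group means was 0.96 for Oat and Lhpp and 0.87 for Gulo and Avpr1a. Mutant replicates 1 and 3 had Lhpp at the untreated level (6.41 and 6.72) with Oat below the untreated range.

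Among the members themselves, deviations from the group means went together only in part. Over the 15 pairs of detected members their r ran from -0.40 for Rhbg and Tbx3 to 0.65 for Gulo and Lect2 over the 15 arrays, and it was -0.38 for Glul and Oat. The detected genes were all lower in treated than in untreated wild type, while within a group a liver with more Oat was not in general one with more Glul.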

How the data were processed

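The authors deposited log2 GCRMA probe set values for 15 liver arrays (GCRMA per the submitters' processing notes, with no version). They are background corrected and normalised between arrays by that method. They were used as deposited, and depth is unknown beyond signal over background. Of 45101 probe sets, 34945 carried 1 symbol in the platform annotation, 932 several (1 of them with Slc1a2, left out), 9160 none and 64 were controls. Probe sets with a log2 value of at least 4 on at least 3 arrays were kept (15541). The test was that of limma 3.58.1, run under R 4.3.3 on 4 group means in a single fit (11 residual degrees of freedom) and Benjamini-Hochberg adjustment over all kept probe sets at 0.05, after a run on simulated data. Arrays under 4 in the lower group were set to 4 for folds given as "at least".

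Members, gene lists and motifs were chosen with earlier results of these data known. The text names every member. From each list it names up to 3 called genes of largest difference in treated against untreated wild type and up to 2 in each of the other 2 comparisons with treated wild type. It also names the 3 genes most like each detected member. For length, not every list gene chosen this way is printed. One label speaks of younger mice and of a liver resection, against all other labels, and was set aside. Sex is labelled male except on 1 mutant array, where it is missing. Alternatives covered centring, quantile normalisation, filters, floors, probe set choice, groups fitted, priors, array weights, the threshold and leaving out each array.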

Additional observations from a re-analysis of the deposited data

Results flagged for a closer look

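The effect on Glul differed between the antibiotic group and the treated mutant, each taken against treated wild type. The difference was 0.98 ± 0.18 on the log2 scale for 1426236_a_at (limma adjusted p = 0.00392, every antibiotic array above every mutant array) and 0.85 ± 0.22 for 1426235_a_at (adjusted p = 0.025). For Lect2 it was 0.74 ± 0.18 (limma adjusted p = 0.0203). The dimmer Glul difference was 0.26 with values under 4 set to 4 (adjusted p = 0.313). With only the 2 groups fitted, that call (adjusted p = 0.08) and the Lect2 call (adjusted p = 0.0618) were lost. Summed macrophage, stellate cell and endothelial marker signals were also higher in the antibiotic group than in the mutant, and their part was not tested.

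An array lay far from the other 3 of its group in 2 of 48 groups of 4 examined, against about 1 in 20 by chance, and in 0 of 24 among tested probe sets. Both were Slc1a2 values near background. On 1433094_at the highest antibiotic array was at 2.71, the others at 2.46 to 2.49, and on 1439940_at the highest mutant array was at 2.17, the others at 1.80 to 1.83.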

How the results depend on the processing

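No paired analysis was possible because the labels name no pairing of arrays between groups. Array numbers in the labels run on from 1 group to the next, up to 15, which neither shows nor excludes pairing. Under all alternatives, the 48 member differences gave 822 further values, of which 781 stayed on the same side of the threshold, 26 lost a call, 15 gained one and 0 reversed a called direction. Signs changed in 13 uncalled values, none beyond 0.21 on the log2 scale, and 4 became exactly 0 with values under 4 set to 4. Without a filter, more probe sets enter, and 14, 11 and 13 of 16 were called in treated wild type, the mutant and the antibiotic group against untreated. For treated wild type, 12905 of all 34945 probe sets were called in either direction at this setting. The member probe sets that enter are those of Slc1a2 and Tbx3 near background, so these added calls are not read as results. For antibiotics against treated wild type, 2 calls became 1 with values under 4 set to 4, without a filter, or with 1 value per gene, and 0 with 2 groups fitted or a threshold of 0.01. For antibiotics against the mutant, 3 became 1 with 2 groups fitted and 1 at 0.01. Leaving out each array gave 8 to 8, 3 to 4 and 0 to 2 calls for treated wild type against untreated, mutant against treated wild type and antibiotics against treated wild type. It gave 7 to 7 and 8 to 8 for the mutant and antibiotics against untreated, and 1 to 5 for antibiotics against the mutant (5 without mutant replicate 2, 1 without mutant replicate 4 or antibiotic replicate 3). The cause of these changes was not tested. Centring arrays moved the median difference of all probe sets after treatment of the wild type from 0.09 to -0.14, and all 8 member calls there were kept. Precision is limited by the number of arrays and, for Rhbg, Slc1a2, Tbx3 and Glul 1426235_a_at, by signal near background.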
